A study of Mus musculus with 25 samples.

Results

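The genes described here are the dual-specificity phosphatase (Dusp), Sprouty (Spry) and Spred genes, which include transcriptional brakes on MAP kinase signalling. They were taken by symbol, as every Dusp, Spry or Spred gene with a plain family number, and numbered 31 of the 25006 entries of the table: 24 Dusp, 4 Spry and 3 Spred genes. RNA was sequenced from tumour preparations of C57BL/6 mice that carried E0771, a mouse mammary carcinoma line, labelled as enriched for CD8+ T cells. In 1 group (3 libraries) an antibody against CD73 was given every 3 days, and the other (3 libraries) served as control. All 6 libraries share tumour line and strain; the labels do not say what the controls received, how old the mice were or whether each library was a separate animal, so p-values here reflect only how much these libraries varied, part of which may be technical. CD73 forms adenosine from AMP outside cells, and the comparison asks which transcripts differed when it was targeted. The other 19 of the 25 samples, spleen T cells kept in culture, were not analysed here.

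MAP kinases carry signals from growth factor, cytokine and antigen receptors to the nucleus in a chain of kinases, of which ERK is the arm driven by RAS, and JNK and p38 are the arms driven by stress and inflammation. Each arm switches on genes that turn it off again. The MAP kinase phosphatases among the Dusp genes remove the activating phosphates from the kinases, Sprouty proteins act between receptor and RAS, and Spred proteins bring neurofibromin, which inactivates RAS, to the membrane. Since ERK itself induces several of these genes, above all Dusp4, Dusp5, Dusp6, Spry2 and Spry4, their transcripts are widely read as a measure of ERK output. In T cells they set how long a receptor signal lasts, and in tumour cells with active RAS they run at high levels. Adenosine signals by another route, through receptors that raise cyclic AMP, whose transcription factor CREB binds the cAMP response element.

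Promoters are shown for the members with the full cAMP response element or a CArG box, and for Dusp2, Dusp16 and Dusp7, which passed the test once control replicate 1 was left out; other members with a motif are named only. Each is the 250 bases before the start site in the RefSeq promoter table (GRCm38.p6, the assembly of mm10), printed 5′ to 3′ on the strand of the gene. Capitals mark the cAMP response element TGACGTCA in Dusp1 (chr17:26508473-26508722, minus strand) and Dusp8 (chr7:142095285-142095534, minus strand), the CArG box of serum response factor in Dusp5 (chr19:53528895-53529144, plus strand), and TGACG, the core of the cAMP response element, in Dusp16 (chr6:134792629-134792878, minus strand). The windows of Dusp2 (chr2:127335909-127336158, plus strand) and Dusp7 (chr9:106368382-106368631, plus strand) held none of the motifs searched. The start sites of Dusp7, Dusp8 and Dusp16 lie inside the span of the gene, and other starts of these genes were not used here.
Dusp1: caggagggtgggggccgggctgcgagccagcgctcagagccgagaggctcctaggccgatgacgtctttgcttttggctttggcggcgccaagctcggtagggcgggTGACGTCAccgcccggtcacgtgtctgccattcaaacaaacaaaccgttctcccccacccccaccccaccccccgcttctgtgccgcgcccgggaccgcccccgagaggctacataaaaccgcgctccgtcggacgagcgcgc
Dusp8: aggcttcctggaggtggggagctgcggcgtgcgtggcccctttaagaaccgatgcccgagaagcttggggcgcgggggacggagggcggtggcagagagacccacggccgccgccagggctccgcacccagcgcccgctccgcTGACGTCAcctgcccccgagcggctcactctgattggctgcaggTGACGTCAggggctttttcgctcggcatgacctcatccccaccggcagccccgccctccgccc
Dusp5: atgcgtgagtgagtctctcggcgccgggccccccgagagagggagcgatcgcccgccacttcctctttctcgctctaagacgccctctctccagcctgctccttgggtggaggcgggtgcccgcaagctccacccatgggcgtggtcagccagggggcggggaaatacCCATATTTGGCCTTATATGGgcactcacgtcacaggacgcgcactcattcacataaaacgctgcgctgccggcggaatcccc
Dusp16: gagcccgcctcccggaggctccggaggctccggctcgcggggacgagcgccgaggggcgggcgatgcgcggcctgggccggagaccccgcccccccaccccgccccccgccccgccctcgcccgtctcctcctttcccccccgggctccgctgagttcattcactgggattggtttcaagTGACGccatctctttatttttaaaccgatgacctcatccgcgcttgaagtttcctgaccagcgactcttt
Dusp2: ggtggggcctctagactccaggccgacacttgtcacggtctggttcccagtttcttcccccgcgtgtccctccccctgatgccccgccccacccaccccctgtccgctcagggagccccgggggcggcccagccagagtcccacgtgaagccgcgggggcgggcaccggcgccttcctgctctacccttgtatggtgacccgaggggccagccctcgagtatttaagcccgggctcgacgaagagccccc
Dusp7: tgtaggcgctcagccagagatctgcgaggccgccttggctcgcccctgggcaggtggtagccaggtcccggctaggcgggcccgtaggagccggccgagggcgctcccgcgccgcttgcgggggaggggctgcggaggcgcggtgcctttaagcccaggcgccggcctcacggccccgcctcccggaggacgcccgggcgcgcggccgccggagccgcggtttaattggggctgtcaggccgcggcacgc

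Of the 31 members, 23 had a promoter in this table, with 26 promoters in all. Members are counted below as genes, while the shares beside them are of promoters. The full cAMP response element, searched on both strands, stood in the windows of 2 of these 23 genes, Dusp1 (once, 143 to 136 bases before the start) and Dusp8 (at 107 to 100 and at 63 to 56 bases before it), against 1.55% of all 32851 promoters. A CArG box occurred in Dusp5 alone, as a pair end to end (82 to 73 and 72 to 63 bases before the start), against 1.47% of all promoters. TGACG, which is also part of each full element, was found in 7 genes, against 17.8% of all promoters. They were Dusp1, Dusp5, Dusp8, Dusp11, Dusp16, Dusp23 and Spred2. The AP-1 letters TGANTCA were found in Dusp13 (6.75% of all promoters), the ETS letters CCGGAAG in Dusp27 (6.91%) and a kappaB site in Dusp22 (7.25%). These are matches of letters and show no binding.

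The libraries held between 10180624 and 17161679 reads in genes. Values throughout are normalized counts, that is, reads in a gene divided by the authors' size factor of the library, and 1 read was worth between 0.748 and 1.27 of them. Markers of the labelled cell type were scarce: the 10 measured T cell and CD8 genes summed to between 166 and 618 in the control libraries and between 303 and 600 after anti-CD73, with none at 0 in any library. Trac, Trbc1 and Trbc2, also on that list, had no entry and are missing from these sums. Macrophage genes (12 of 12 measured) summed to between 10132 and 19220 in the controls and between 17140 and 28503 after anti-CD73, and neutrophil genes (7 of 7) to between 5807 and 7687 and between 8498 and 15007. Fibroblast and smooth muscle genes summed to 2860 to 3643 and 3663 to 4158, dendritic cell genes to 349 to 846 and 679 to 1059, endothelial genes to 204 to 776 and 558 to 871, and erythroid genes to 7845 to 58716 and 8412 to 30978. The erythroid sums lack Hbb-bs and Hbb-bt, which had no entry. Epithelial genes summed to 1956 to 4659 in the controls and 2106 to 2699 after anti-CD73. Most of this was the keratin gene Krt8, a marker of the epithelial line (1856 to 4559 and 2000 to 2651). Krt18 had means of 76.1 and 67.5, and Epcam of 6.23 and 4.64. Krt19, Krt7 and Cldn7 were at 0 in at least 1 library. The values below thus belong to mixed tumour material, in which fewer cells of a type and less RNA per cell cannot be told apart. Control replicate 1 stood apart from the other controls: the SD over genes of its log2 difference from their mean was 0.75, against 0.25 to 0.49 for the other 5 libraries, each against the other members of its group. Several of its marker sums lay in or near the treated range. T cell genes summed to 618 (control replicates 2 and 3: 166 and 213) and macrophage genes to 19220 (12679 and 10132). Endothelial genes summed to 776 (257 and 204) and erythroid genes to 7845 (55529 and 58716). The neutrophil sum went the other way (5807, against 7687 and 6616). Leaving this library out also shifted the control marker sums, and any part of that in the results was not tested. Values without control replicate 1 are given beside many of the results.

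Most fitted differences of the Dusp, Spry and Spred genes between anti-CD73 and control tumours were small, as for most genes tested, but many had wide intervals. Of the 31 members, 26 had a mean of at least 10 normalized counts over the 6 libraries and were tested with limma on log2(normalized count + 1), with p-values adjusted over all 12262 genes tested. None passed (0 of 26 at an adjusted p under 0.05; 0% of all genes tested), as with edgeR's quasi-likelihood test (0; 0% of all genes). DESeq2 on the recovered reads also called 0 members, although it called 592 genes (4.83%). At an unadjusted p under 0.05, limma gave 2 members (7.69%, against 15.5% of all genes), Dusp2 higher (8.69% of all genes) and Spred1 lower (6.82% of all genes). At that level edgeR gave 2 (15.2% of all genes) and DESeq2 4 (16.5% of all genes). Of the 26, 12 lay higher and 14 lower after anti-CD73, with a median log2 fold change of -0.04, against 0.00393 over all genes. In 25 of the 26 the fitted fold was within 1.5 either way (96.2%; 86.2% of all genes). For 12 of them (46.2%; 39.0% of all genes) the whole 95% interval was within 1.5, among them Dusp1, Dusp4, Dusp5, Dusp6, Spry2 and Spry4. Libraries of these sizes were also simulated, with 200 genes changed and each gene given the same spread in all 6 libraries. The wider distance of control replicate 1 was thus not simulated. There limma recovered 41.7% of changes of 2-fold and 0% of changes of 1.5-fold. In that setting this test had little power for single genes at the size of most differences seen here.

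**Figure D1:**
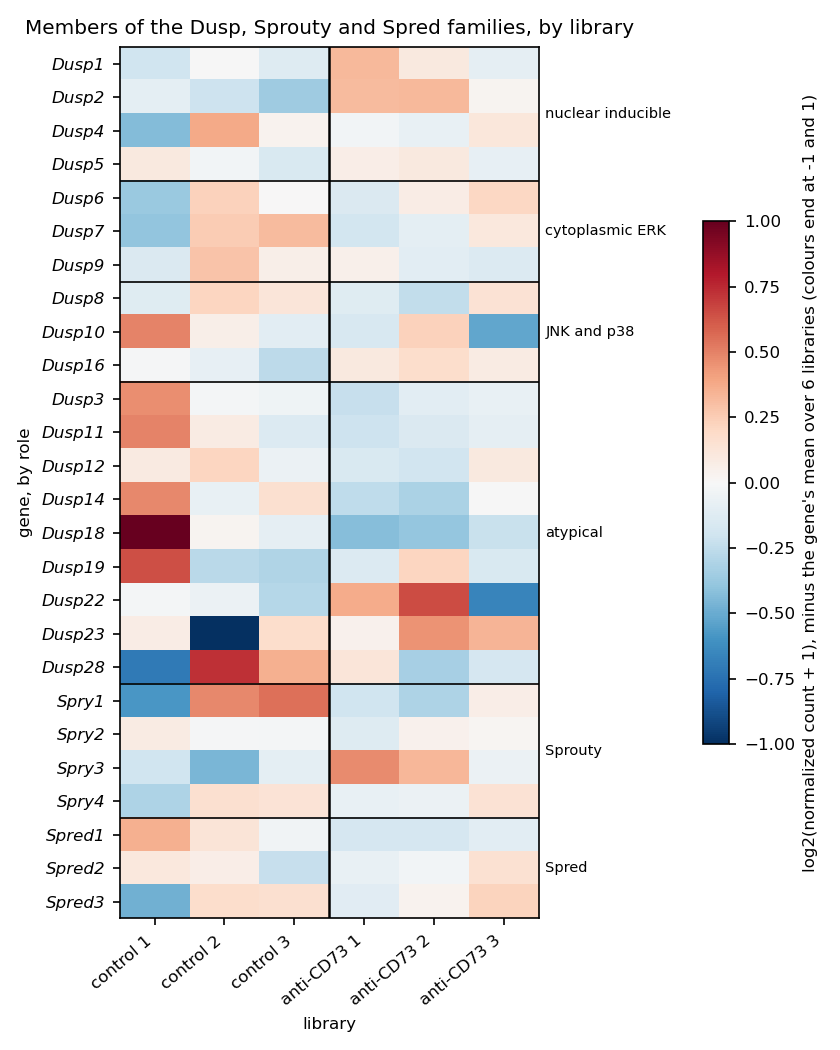
Heat map of the 26 tested members (rows, grouped by role) in the 6 libraries (columns); colour is the log2 of the normalized count plus 1, minus the gene's mean over the libraries. Control replicate 1 is red for Dusp18, Dusp19 and other atypical phosphatases and blue for Dusp4, Dusp6, Dusp7, Spry1 and Spred3; strong colours in other libraries are mostly those of Dusp22, Dusp23 and Dusp28, which have few reads, and of Spry1 and Spry3.

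The groups did not overlap for 6 of the 26 members (23.1%), close to the 23.5% of all genes tested. Higher in all 3 anti-CD73 libraries than in any control were Dusp2, Dusp16 and Spry3 (11.5%; 11.5% of all genes), and lower in all 3 were Dusp3, Dusp18 and Spred1 (11.5%; 12% of all genes). Without control replicate 1 the count was 11 (53.5% of all genes) and without anti-CD73 replicate 3 it was 12 (36.2% of all genes). Members spread over the libraries about as much as other genes: the highest library was less than 2 times the lowest for 20 of 26 members (76.9%), as for 69.7% of all genes. The narrowest range was that of Spry2 (1.16 times), followed by Dusp5 (1.19 times), and the widest ranges, of Dusp23 (3.18 times), Dusp18 (2.88 times) and Dusp28 (2.83 times), included genes with few reads.

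Of the nuclear phosphatases that are induced by the signals they end, Dusp2 was the member with the smallest p of the whole family. Dusp2 (ENSMUSG00000027368; mm10 chr2:127336159-127338377) encodes PAC-1, a phosphatase of ERK and p38 known mainly from blood cells. It stood at 720, 669 and 603 normalized counts in control replicates 1, 2 and 3 and at 959, 964 and 785 after anti-CD73. All 3 treated libraries lay above all controls, and the lowest of them was nearer to the controls than to the other two. The means were 664 ± 58.5 and 902 ± 102 (SD, n = 3), 35.9% higher. The log2 fold change was 0.44 with a standard error of 0.14 (limma adjusted p = 0.206). Without control replicate 1 it was 0.50 and passed (limma adjusted p = 0.0174), in a comparison in which 11.9% of all genes were called higher. Neutrophil genes (6 of 7 higher) also had larger sums in every anti-CD73 library than in any control, and all 12 macrophage genes lay higher. All 10 T cell and CD8 genes had a log2 fold change above 0, but their sums overlapped as given above, the groups were separate for 1 of them (Lck), and the mean counts of Cd3e (23.5 and 21.1) and Cd5 (18.5 and 14.1) were lower after anti-CD73. Their part in the Dusp2 difference was not tested.

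Dusp1 (ENSMUSG00000024190; mm10 chr17:26505591-26508472), whose product MKP-1 prefers p38 and JNK, is an immediate early gene and has the cAMP response element shown above. It stood at 3531, 4043 and 3723 in the control libraries and at 5094, 4343 and 3815 after anti-CD73, so that the groups overlapped. The fitted log2 fold change was 0.22 (SE 0.13, limma adjusted p = 0.468). Of the 12 immediate early genes known from tissue dissociation, 4 lay higher and 8 lower, and their summed counts were 63210 to 71660 in the controls and 50161 to 54588 after anti-CD73. The sums lay lower in all 3 treated libraries. The 3 smallest p on that list were those of Fosb (-0.89), Nr4a1 (0.71) and Ier3 (-0.77). Any part of dissociation in the Dusp1 values was not tested.

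Dusp5, which encodes a phosphatase of nuclear ERK alone, had the pair of CArG boxes shown above and nearly even values. They were 5019, 4594 and 4202 in the controls and 4892, 4997 and 4426 after anti-CD73. The log2 fold change was 0.05, with a 95% interval from -0.22 to 0.32, and 0.12 without control replicate 1. Dusp4, the nuclear phosphatase MKP-2, had 2582, 4538 and 3562 normalized counts in the controls, which enclosed the treated values of 3413, 3314 and 3776. Its log2 fold change of 0.01 (SE 0.20) turned to -0.20 without control replicate 1, and to -0.0066 with edgeR and -0.018 with DESeq2. The summed counts of the 4 nuclear genes were 12596 ± 1088 in the controls and 13592 ± 778 after anti-CD73 (SD, n = 3; exact permutation p = 0.3, where 0.1 is the smallest that 3 against 3 allows).

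Of the 3 cytoplasmic phosphatases of ERK, 1 lay higher and 2 lower, and none passed with all libraries. Dusp6 (ENSMUSG00000019960; mm10 chr10:99263231-99267489), the ERK-specific MKP-3 and a widely used readout of ERK activity, stood at 1945, 2948 and 2522 in the control libraries and at 2281, 2641 and 2904 after anti-CD73. The ranges lay on top of each other, and the log2 fold change was 0.09 (95% interval -0.32 to 0.50), or -0.071 without control replicate 1. Dusp7 (ENSMUSG00000053716), which encodes a close relative of MKP-3, stood at 2310, 3629 and 3791 in the control libraries and at 2674, 2837 and 3263 after anti-CD73. Control replicate 1 was the lowest of all 6 libraries here and the other controls were the highest. With all libraries the log2 fold change was -0.12 (SE 0.20, limma adjusted p = 0.811). Without control replicate 1 it was -0.35 and passed (limma adjusted p = 0.0312, with 10.3% of all genes called lower). Dusp9, which encodes MKP-4, stood at 1513, 2034 and 1741 in the control libraries and at 1732, 1551 and 1518 in the treated ones, with overlap. Its log2 fold change was -0.13 (SE 0.14), and -0.24 without control replicate 1 (limma adjusted p = 0.117). In all 3 genes control replicate 1 was the lowest library.

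Among the phosphatases that act on JNK and p38, Dusp16 lay higher and Dusp8 and Dusp10 lower. Dusp16 (ENSMUSG00000030203; mm10 chr6:134715468-134807063) encodes MKP-7, which acts mainly on JNK. It stood at 1412, 1347 and 1190 in the control libraries and at 1529, 1616 and 1515 after anti-CD73. The treated libraries were close to each other and all above the controls, with means of 1316 ± 114 and 1553 ± 54.8 (SD, n = 3). The log2 fold change was 0.24 (SE 0.11, limma adjusted p = 0.35). Without control replicate 1 it was 0.29 (limma adjusted p = 0.041, with 11.9% of all genes called higher). Dusp10, the p38 and JNK phosphatase MKP-5, had 428, 315 and 281 in the controls and 272, 357 and 211 after anti-CD73 (log2 fold change -0.30, SE 0.24, and -0.12 without control replicate 1), and its groups overlapped. Dusp8, with a pair of full cAMP response elements in its window, had 524, 661 and 620 in the controls and 523, 481 and 629 after anti-CD73. It had a log2 fold change of -0.15 (SE 0.15; -0.24 without control replicate 1), opposite in sign to that of Dusp1, the other member with this element, and neither passed the test.

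**Figure D2:**
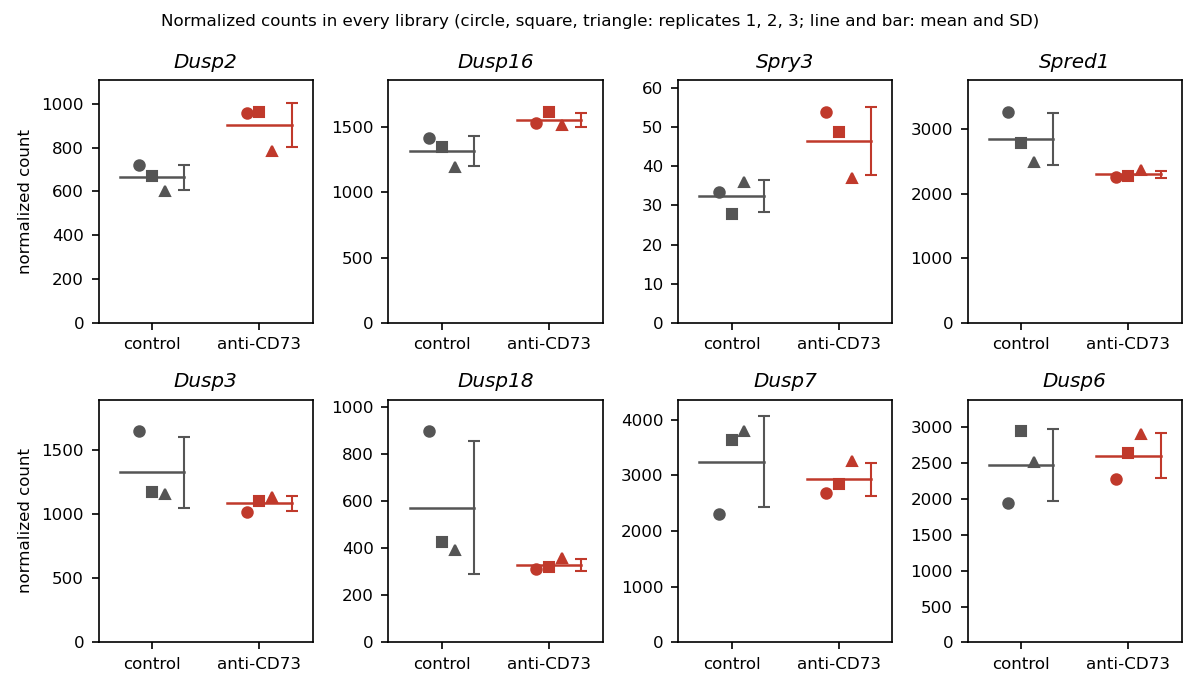
Normalized counts of 8 members in every library, with axes from 0; circles, squares and triangles are replicates 1, 2 and 3, and lines and bars give the mean and SD of 3 libraries. The groups are separate for Dusp2, Dusp16, Spry3, Spred1, Dusp3 and Dusp18 and mixed for Dusp7 and Dusp6, and the circle of the control group lies far from the other controls in Dusp18, Dusp3 and Dusp7.

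The atypical phosphatases lack the domain that docks MAP kinases, and several act on other substrates. Of the 14 in the table, 9 were tested: 7 lay lower and 2 higher, with a median log2 fold change of -0.25 that was -0.12 without control replicate 1. Dusp18 (ENSMUSG00000047205; mm10 chr11:3894935-3901299), whose product is found at mitochondria, stood at 899, 427 and 393 in the control libraries and at 311, 321 and 360 after anti-CD73. Control replicate 1 had more than any other library by a wide margin, and the remaining controls lay just above the treated range. The log2 fold change of -0.69 (SE 0.30, limma adjusted p = 0.331) was -0.31 without that library (limma adjusted p = 0.0881). Dusp3, which encodes the small phosphatase VHR, went the same way: 1644, 1172 and 1156 in the controls and 1014, 1101 and 1131 after anti-CD73. Its log2 fold change was -0.27 (SE 0.16), and -0.11 without control replicate 1. The separation of the groups in Dusp3 thus rested on a margin between 1131 and 1156.

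Dusp14 (MKP-6), which restrains T cell receptor signalling, had 1422, 969 and 1141 in the controls and 856, 820 and 1017 after anti-CD73 (log2 fold change -0.38, SE 0.17, limma adjusted p = 0.332, and -0.23 without control replicate 1), and its groups overlapped between control replicate 2 and anti-CD73 replicate 3. Dusp11, whose product removes phosphates from RNA ends, had 3150, 2359 and 2025 in the controls and 1932, 2015 and 2091 after anti-CD73 (log2 fold change -0.30, SE 0.17, and -0.12 without control replicate 1). The remaining tested atypical genes had fewer reads and wider errors. Dusp12 gave -0.16 (SE 0.16), Dusp19 -0.05 (SE 0.31) and Dusp28 -0.25 (SE 0.41); without control replicate 1 Dusp19 gave 0.26 and Dusp28 -0.67. Dusp22, which encodes an inhibitor of the T cell kinase Lck, gave 0.24 (SE 0.40) from 17.0 ± 1.78 in the control libraries and 21.7 ± 9.41 after anti-CD73 (SD, n = 3), and Dusp23 gave 0.55 (SE 0.42). Summed over all 14 genes, the controls stood at 7440, 5250 and 4999 normalized counts. The treated libraries stood at 4390, 4549 and 4895 (exact permutation p = 0.1, the smallest that 3 against 3 allows). The separation rested on 4895 against 4999. Among single genes tested, 23.5% had separate groups in either direction and 12% as lower, and no such share was computed for sums of genes. Exact permutation of the sums gave p = 0.2 for Spred, 0.5 for the JNK and p38 phosphatases and 0.7 for Sprouty. It gave 0.7 for the cytoplasmic ERK phosphatases and 0.6 for all 31 members, besides the 0.3 of the nuclear genes.

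Dusp13, Dusp15, Dusp21, Dusp26 and Dusp27, known from testis, muscle, brain or glia, fell under the filter. Dusp13 had 22 reads in all 6 libraries, Dusp15 had 6, and Dusp27 had 3, all in control replicate 1 (95% Poisson interval 0.619 to 8.77 reads, which covers counting error only). Dusp21 and Dusp26 had 0 reads in every library, for which a limit of 3 reads, one-sided and for counting error only, is 2.25 to 3.80 normalized counts per library.

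Of the Sprouty genes, which restrain RAS activation, 2 lay higher and 2 lower, and none passed. Spry2 (ENSMUSG00000022114; mm10 chr14:105891947-105896819) stood at 2138, 2001 and 1990 in the control libraries and at 1848, 2081 and 2048 after anti-CD73. Its log2 fold change was -0.04 with a 95% interval from -0.28 to 0.21, the narrowest of the family, and -0.0042 without control replicate 1. Spry4 had 1071, 1481 and 1456 in the controls and 1254, 1273 and 1461 after anti-CD73, and gave 0.0048 (95% interval -0.36 to 0.37). It gave -0.15 without control replicate 1. Spry1 had 30.5, 64.6 and 68.1 in the controls and 39.98, 37.1 and 48.3 after anti-CD73. Here too control replicate 1 was the lowest library and the other controls the highest, and the log2 fold change went from -0.30 (SE 0.35) to -0.66 (SE 0.23, limma adjusted p = 0.0686) without it. Spry3 went the other way, from 33.5, 27.9 and 35.9 in the controls to 53.9, 48.7 and 37.0 after anti-CD73 (log2 fold change 0.50, SE 0.25, limma adjusted p = 0.393). Its groups were separate by about 1 normalized count.

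Of the Spred genes, Spred1 lay lower. Spred1 (ENSMUSG00000027351; mm10 chr2:117121071-117182279), the partner of neurofibromin whose loss causes a RAS pathway syndrome, stood at 3267, 2780 and 2484 in the control libraries and at 2264, 2271 and 2363 after anti-CD73. The treated libraries lay within a narrow band below every control, with means of 2843 ± 395 and 2299 ± 55.2 (SD, n = 3). The log2 fold change was -0.30 (SE 0.13, limma adjusted p = 0.319), and -0.19 without control replicate 1 (limma adjusted p = 0.117). Spred2 gave 0.03 (SE 0.14; 0.095 without control replicate 1) with overlapping groups, between 689 and 870 in the controls and between 767 and 897 after anti-CD73. Spred3 gave 0.10 (SE 0.20), and -0.12 without control replicate 1, in which it was lowest (704, against 1107 and 1095 in the other controls).

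**Figure D3:**
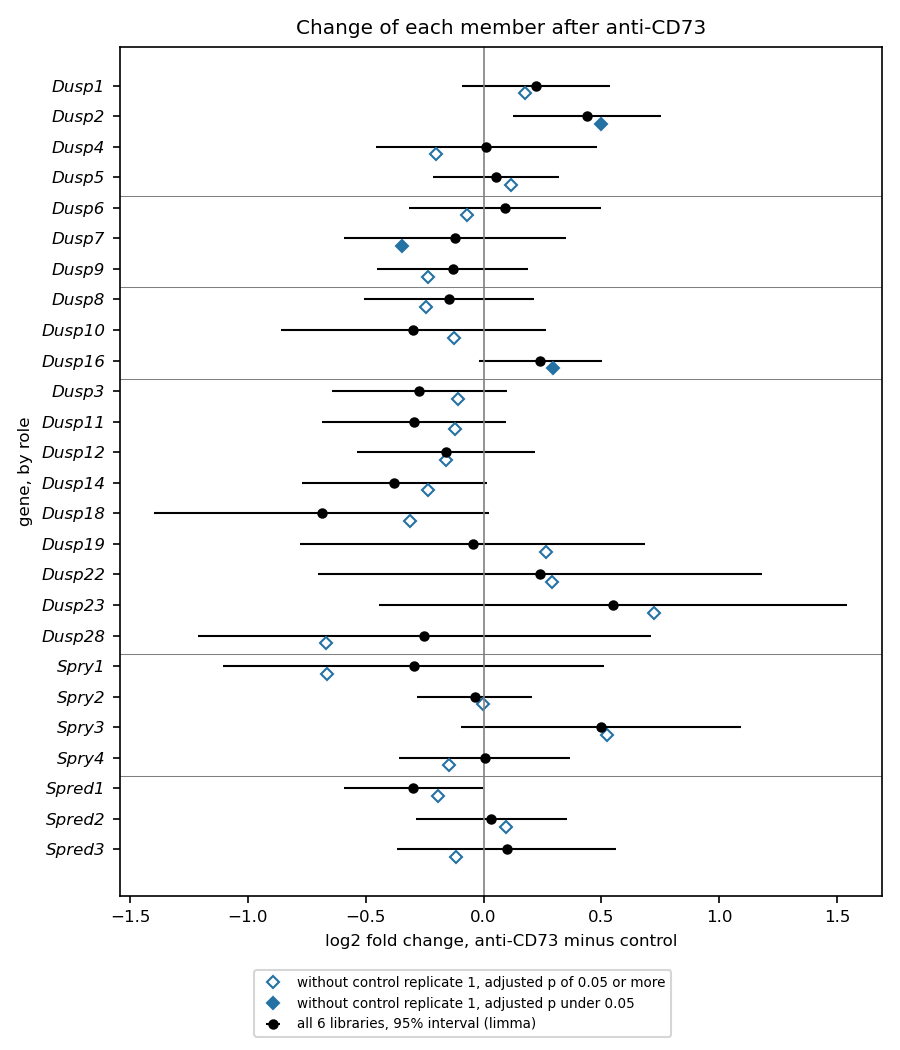
Log2 fold change of each tested member, anti-CD73 minus control, with its 95% interval from limma (black), and the value without control replicate 1 (blue diamonds, filled where the adjusted p was under 0.05). Only the intervals of Dusp2 and Spred1 leave out 0, and the filled diamonds are those of Dusp2, Dusp16 and Dusp7.

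Control replicate 1 was outside the range of all 5 other libraries in 18 of the 26 members, above it in 9 and below it in 9, against 62.8% of all genes (30.7% above and 32.1% below). Below the range were all 3 cytoplasmic ERK phosphatases, Dusp1 and Dusp4, Spry1 and Spry4, Spred3 and Dusp28. Above it were 5 of 9 atypical genes, Dusp10, Dusp5, Spry2 and Spred1. Against the mean of the other controls, the log2 difference of this library was -1.098 for Spry1, -0.68 for Dusp7, -0.65 for Spred3, -0.64 for Dusp4, -0.49 for Dusp6, -0.45 for Spry4 and 1.13 for Dusp18. These 7 distances exceed the fitted anti-CD73 difference of the same genes, as does the largest, that of Dusp28 (-1.25). The distance was smaller than the fitted difference in Dusp2 (0.18), Dusp16 (0.16), Spry3 (0.08) and Dusp1 (-0.14). It was also smaller in Dusp12 (0.01), Dusp22 (0.16) and Dusp23 (0.52). Without control replicate 1, limma called 3 of 26 members, Dusp2 and Dusp16 higher and Dusp7 lower, where 22.2% of all genes were called. The same 3 passed with edgeR (22% of all genes) and DESeq2 (21.8%). The median of the 26 members was then -0.12, against -0.015 for all genes.

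Of the other genes of the pathway, listed by role, none passed the test with all libraries. In the ERK cascade, from adaptors through RAS and RAF to ERK, 0 of 17 genes passed, 9 lay higher and 8 lower, and the median log2 fold change was 0.03. The scaffold gene Ksr1 gave 0.46 (SE 0.16) and the adaptor gene Grb2 0.24 (SE 0.12), with separate groups in each. Of this list, 1 gene passed as higher and 2 as lower without control replicate 1, where 11.9% and 10.3% of all genes did. The median was then -0.0028. Of 17 tested genes of the JNK, p38 and ERK5 cascades, 0 passed and 10 lay higher, with a median of 0.10 that was -0.00063 without control replicate 1. The largest difference was that of Mapkapk3, which encodes a kinase activated by p38, at 223, 152 and 122 in the control libraries and 420, 476 and 256 after anti-CD73 (log2 fold change 1.205, SE 0.30, limma adjusted p = 0.169). It passed without control replicate 1, at 1.44 (limma adjusted p = 0.0054). So did Map2k4, which encodes a kinase that activates JNK, at 0.399 (limma adjusted p = 0.0136, named after its value was seen). Without control replicate 1, 11.9% of all genes were called higher. Map3k7 gave -0.25 (SE 0.13) and Mapk7 0.28 (SE 0.17), and -0.14 and 0.11 without that library.

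Other brakes on RAS and on receptors, such as neurofibromin and the SOCS proteins, had 0 of 11 genes past the test, also without control replicate 1, and a median of 0.04 (0.0079 without it). Socs3 lay lower in every treated library (-0.36, SE 0.14, limma adjusted p = 0.28), as did Socs1 (-0.29, SE 0.15), and the RAS inactivator gene Rasa1 gave -0.31 (SE 0.16; -0.19 without that library). Among transcripts that ERK induces but that are no brakes, 0 of 11 tested genes passed, 8 lay lower and 3 higher, and the median was -0.13 (-0.29 without control replicate 1). In 4 of them every treated library lay below every control (12% of all genes). Ier3, an early response gene that promotes survival, went from 17858, 11684 and 10945 normalized counts in the controls to 7810, 6800 and 8699 after anti-CD73 (log2 fold change -0.77, SE 0.20, limma adjusted p = 0.178). The AP-1 gene Fosl1 gave -0.33 (SE 0.11) and Myc -0.43 (SE 0.15). The ephrin receptor gene Epha2, named after its value was seen because it completes the 4, gave -0.34. Ier3, Ier2, Fos and Egr1 are also among the immediate early genes of tissue dissociation given with Dusp1, so these lists are not separate. Leaving out control replicate 1, Ier3, Fosl1 and Ier2 passed as lower (10.3% of all genes) and Egr1 as higher (11.9% of all genes). Etv4, Etv5 and Phlda1, also used as ERK readouts and named after their values were seen, were near 0, with -0.05 for Etv4, 0.04 for Etv5 and -0.11 for Phlda1 (-0.20, 0.07 and 0.02 without control replicate 1).

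**Figure D4:**
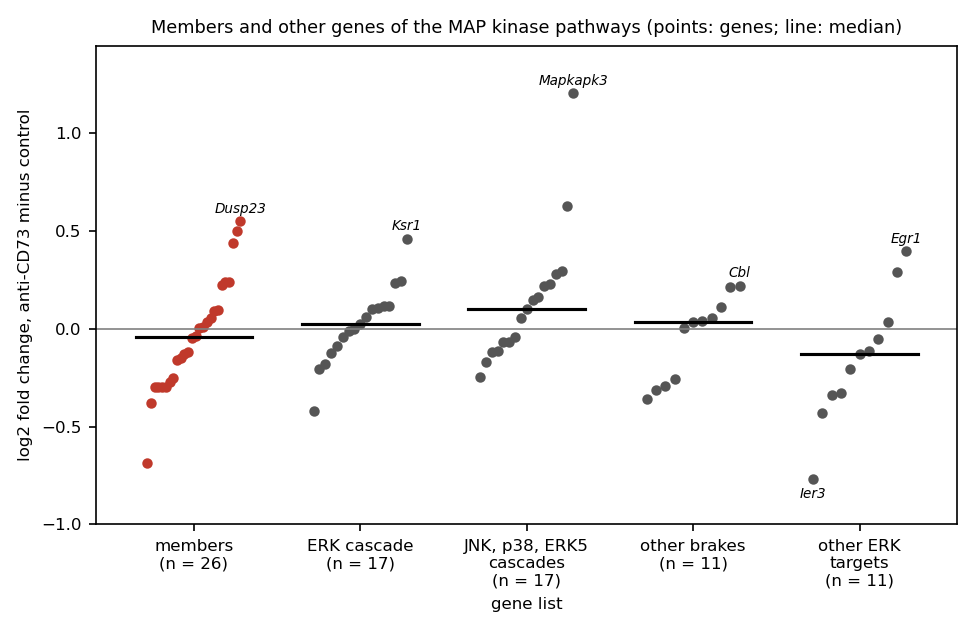
Log2 fold change, anti-CD73 minus control, of the 26 tested members and of 4 other lists of MAP kinase pathway genes; each point is a gene, lines are medians, and the highest gene of each list and the lowest of all are named. All 5 medians lie between -0.13 and 0.10, and most genes lie within 0.5 of 0, with Mapkapk3 highest and Ier3 lowest among the other lists.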

How the data were processed

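RNA of 3 control and 3 anti-CD73 tumour preparations was analysed. Sample titles gave group and replicate; table columns were matched through the descriptions. The deposited signal is a table of gene counts, already normalized by the authors with DESeq, per the labels. The submitters' processing notes name Bowtie 0.12.7 and mm10, with no role. Counter, strand use and handling of multiply matching reads were not given in the sources used here, so overlapping genes or pseudogene copies may share reads.

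Every value was a whole multiple of 1 read (100% within 0.01), and reads were recovered by division. Values plus 1 were taken to log2 and tested two-sided with limma (version 3.58.1, with a trended prior, in R 4.3.3), for the 12262 genes with a mean of at least 10, with Benjamini-Hochberg adjustment at 0.05. The added 1 makes fold changes of low genes too small. Alternatives were edgeR 4.0.16 and DESeq2 1.42.0 on recovered reads, pseudocounts 0.5 and 8, no filter, a minimum mean of 50, TMM and quantile scaling, robust empirical Bayes, replicate blocks and leaving out each library. Sums were compared by two-sided exact permutation. Scripts were tested on simulated data with 200 changed genes.

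Members with separate groups, or an unadjusted p under 0.05 with all libraries or any 1 left out, are given by library, and the 3 smallest p of each pathway list are named, except for results that are not reported here. Members and lists were chosen with earlier results of these data known. Coordinates and promoters came from RefSeq (GRCm38.p6), matched by symbol. Figures used matplotlib 3.10.9.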

Additional observations from a re-analysis of the deposited data

How the results depend on the processing

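The count of members past the test stayed at 0 of 26 under both pseudocounts, both filters, TMM and quantile scaling, robust empirical Bayes, edgeR, DESeq2 and the replicate block by title number. With each library left out in turn it ranged from 0 to 3, the 3 being Dusp2, Dusp16 and Dusp7 without control replicate 1. edgeR and DESeq2 without that library, chosen after seeing the data, each gave 3. The replicate block by description number gave 1 (Dusp2, with 14.5% of all genes called) and a median of -0.11. In that fit control replicate 1 and anti-CD73 replicate 2 shared their number with no other library. Neither added to the fold changes, which rested on 2 pairs, so in effect control replicate 1 was left out here too. Same-numbered libraries by title had correlations of 0.19, -0.096 and 0.26, and the 2 pairs that share a description number -0.16 and 0.26, so neither set of numbers was taken to pair the samples. The members' median ranged from -0.12 to 0.015 with a library left out, and the count with separate groups from 7 to 12. That count can only stay or rise when a library is left out. It was 11 without control replicate 1 (53.5% of all genes) and 12 without anti-CD73 replicate 3 (36.2% of all genes). Shares of all genes without the other libraries were not computed.

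Signs changed in 11 members, all with main values near 0 or wide errors; the cause was not tested. With a library left out, Dusp19 ranged from -0.21 to 0.26, Dusp22 from -0.027 to 0.63, Dusp28 from -0.67 to 0.052, Dusp4 from -0.20 to 0.20, Dusp5 from -0.011 to 0.12, Dusp6 from -0.071 to 0.23, Dusp7 from -0.35 to 0.0094, Spred2 from -0.072 to 0.095, Spred3 from -0.12 to 0.21, Spry2 from -0.070 to 0.016 and Spry4 from -0.15 to 0.087. Under the replicate block by description number, Dusp19 gave 0.14, Dusp4 -0.16, Dusp6 -0.083, Spred3 -0.11 and Spry4 -0.12. Quantile scaling gave -0.019 for Dusp22 and 0.027 for Spry2. With edgeR and DESeq2, Dusp4 gave -0.0066 and -0.018, and DESeq2 gave -0.00071 for Spry4. Without control replicate 1, edgeR and DESeq2 gave 0.29 and 0.29 for Dusp19, -0.20 and -0.20 for Dusp4, -0.055 and -0.055 for Dusp6, -0.098 and -0.097 for Spred3, 0.010 and 0.011 for Spry2, and -0.13 and -0.13 for Spry4. The other 15 members kept their sign under all 19 alternatives. In the simulation of the unblocked limma fit on 6 libraries, which gave each gene the same spread in all of them, 0% of 1.5-fold changes were recovered.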
